A study of Mus musculus with 6 samples.

Results

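Expression of the Sonic hedgehog pathway was examined in dorsal midbrain at embryonic day 10.5, in 3 *Ezh2* cko samples and 3 control samples with 1 Affymetrix A430 array each. The genes are *Shh*, its receptor and coreceptor genes *Ptch1*, *Boc* and *Cdon*, the inhibitor gene *Hhip*, the transducer gene *Smo* and the transcription factor genes *Gli1*, *Gli2* and *Gli3*. Every probe set that the platform's annotation assigns to 1 of these 9 symbols and to no other was taken, which gave 23 of the 45037 probe sets tested (9 of 18193 genes). The *Ezh2* cko embryos, labelled as a conditional KO of Ezh2, carried *Wnt1-Cre* and 2 floxed alleles of the part of *Ezh2* that encodes the catalytic SET domain. The controls, labelled WT, were by the methods embryos that either had the floxed alleles without Cre or had *Wnt1-Cre* with 1 wild-type allele of *Ezh2*, and the labels do not tell these kinds apart. All were on a C57BL/6 background. *Wnt1-Cre* is active in the dorsal midbrain and also in neural crest, so that mesenchyme in a dissected sample can be recombined too. By the methods the 3 samples of each group came from 2 litters, so that some share a litter, the labels assign no sample to a litter, and p-values therefore measure the spread between these samples only. The probe set that represents *Ezh2* read 11.79, 11.74 and 11.72 in the *Ezh2* cko, against 11.69, 11.76 and 11.66 in controls (log2 difference 0.05, adjusted p = 0.918), and since its place relative to the deleted part is not known here, it does not check the deletion.

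Sonic hedgehog is a secreted protein that the notochord and the floor plate release to pattern the ventral neural tube. Without it, the receptor Patched1 keeps the membrane protein Smoothened inactive and Gli proteins, above all Gli3, are processed into repressors. Binding of the ligand to Patched1 and to the coreceptors Cdon, Boc and Gas1 frees Smoothened, and Gli activators accumulate through the primary cilium. The pathway feeds back on its own parts: *Ptch1*, *Gli1* and *Hhip* are induced by signalling, whereas *Cdon*, *Boc* and *Gas1* are repressed by it. The dorsal midbrain lies far from the source of the ligand. Ezh2 is the methyltransferase of Polycomb repressive complex 2, which in mammals acts mostly at CpG-rich gene starts.

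None of the 23 probe sets rose or fell in the *Ezh2* cko midbrain. The 2 genes with the lowest p-values were *Gli1*, with a log2 difference (*Ezh2* cko minus control) of -0.38, and *Cdon*, with 0.32. All 3 probe sets of *Ptch1* had negative differences, of -0.26, -0.22 and -0.16. The brightest probe sets of the coreceptor genes *Cdon* and *Boc* had positive ones, of 0.32 and 0.21. The smallest Benjamini-Hochberg adjusted p among the members was 0.345 (limma, over all probe sets), while 0.189% of all probe sets passed an adjusted p of 0.05. The methods required a log2 difference of 0.81 or more in size and an unadjusted p not above 0.01. They name no test for the p-values of the arrays, and those of limma were used here. None of the members reached both limits, as 0.26% of all probe sets did.

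At an unadjusted p under 0.05, 3 of the 23 probe sets were lower (13.0%, against 3.06% of all probe sets) and 2 were higher (8.7%, against 4.49%). The lower ones were that of *Gli1* and 2 of *Ptch1*, and the higher ones were 1 each of *Cdon* and *Boc*. With the methods' t-test (the unpaired one, named in general, not for the arrays) none of all 45037 probe sets passed the adjusted p. That none of the 23 passed it therefore says nothing about these genes in particular. All arrays of one group lay on one side of all arrays of the other for 4 lower probe sets (17.4%, against 7.27% of all) and for 2 higher ones (8.7%, against 5.72%). Of the 4 lower ones, 3 belong to *Ptch1*, so they are not independent of each other. Without *Ezh2* cko replicate 1, 10 of the 23 were separated in this way, which fewer arrays make easier. The share of all probe sets separated without that array was not computed, so the 10 cannot be set beside the shares above. Taking the probe set with the highest mean signal for each gene, the median log2 difference of the 9 genes was -0.10, against -0.02 over all 18193 genes. Of the 9 differences 7 were negative, where 10361 of all 18193 were negative and 7832 positive.

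**Figure D1:**
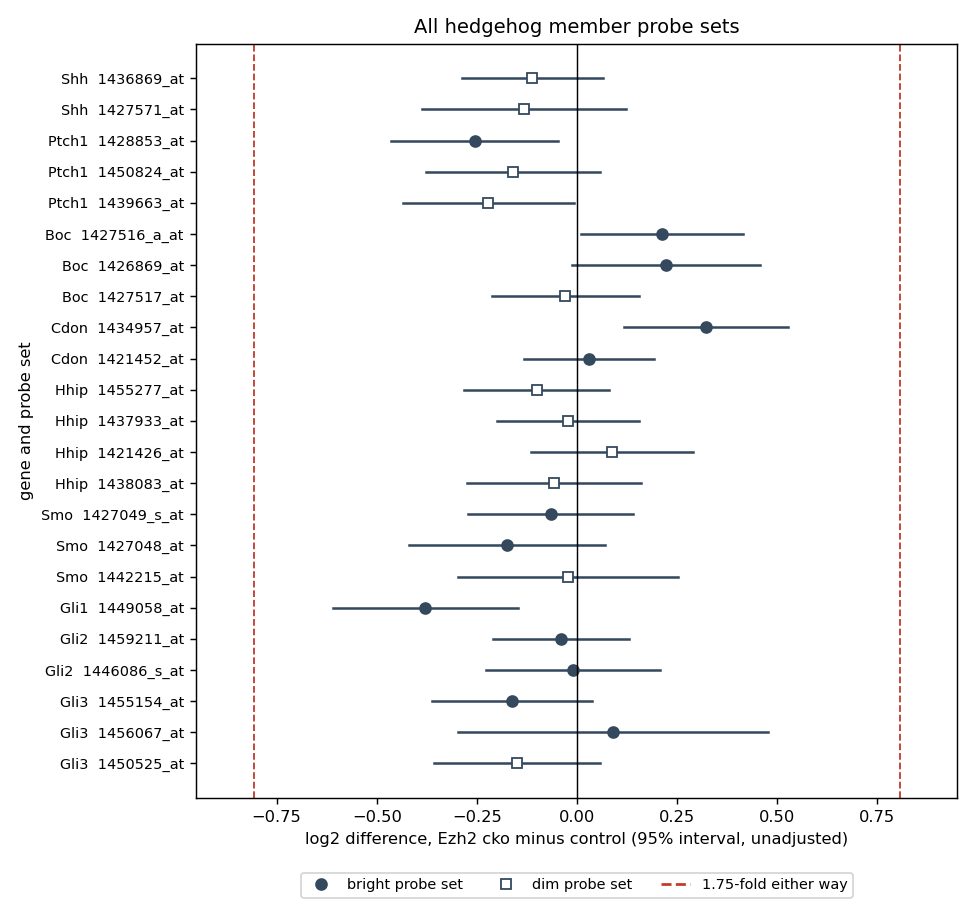
Log2 difference, *Ezh2* cko minus control (x axis), of each of the 23 probe sets of the hedgehog genes (y axis, ordered by role), with its unadjusted 95% interval from limma. Filled circles are the 12 probe sets that pass a filter on dim signals, open squares the 11 that do not, and dashed lines mark the fold threshold of the methods, a log2 difference of 0.81 in size, which none of the intervals reaches. The intervals of *Gli1*, of 2 *Ptch1* probe sets, of 1 *Cdon* and of 1 *Boc* probe set do not cross 0.

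The intervals give the size of difference that these arrays leave possible. The lowest end of any unadjusted 95% interval was -0.61, for *Gli1*, and the highest was 0.53, for *Cdon*, both inside the fold threshold of 0.81. This bound is weakest for dim probe sets. Of the 23, 11 did not reach the median of all values (a log2 signal of 5.70) on at least 3 arrays, and in such signals background takes a larger part and narrows differences. Dim in this sense were both probe sets of *Shh*, all 4 of *Hhip*, 2 of the 3 of *Ptch1* and 1 each of *Boc*, *Smo* and *Gli3*.

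Among the ligands, *Shh* had no probe set that was bright on these arrays. Its probe set 1436869_at read 4.20, 4.22 and 4.17 in the *Ezh2* cko, against 4.22, 4.39 and 4.32 in controls. The other, 1427571_at, read 3.54, 3.54 and 3.86 in the *Ezh2* cko, against 3.66, 3.77 and 3.91 in controls. The groups overlapped in both, with log2 differences of -0.11 (95% interval -0.29 to 0.06) and -0.13 (-0.39 to 0.12). The genes for the other ligands, *Dhh* (desert hedgehog) and *Ihh* (Indian hedgehog), and for the lipid transferase and carriers that release hedgehog proteins were read from a list of 8. None of these 8 rose or fell, 5 had positive differences, and their median was 0.07. The largest was that of *Disp2*, a homologue of the hedgehog release channel gene *Disp1*, at 0.33 (adjusted p = 0.645), although its other 2 probe sets gave -0.21 and -0.01. *Dhh* had -0.22 (adjusted p = 0.715), *Scube2*, for a secreted carrier of hedgehog protein, 0.18 (adjusted p = 0.752), and *Hhat*, for the palmitoyl transferase of the ligand, 0.18 (adjusted p = 0.751).

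*Ptch1*, both the receptor and a target of the pathway, was lower on every *Ezh2* cko array than on every control in each of its 3 probe sets, by small margins. The brightest, 1428853_at, read 10.13, 10.29 and 10.17 in the *Ezh2* cko, against 10.32, 10.57 and 10.46 in controls. The gap between the nearest arrays of the groups was narrower than the spread inside either group. The log2 difference was -0.26 (standard error 0.09, 95% interval -0.46 to -0.05, 0.838-fold), with an unadjusted p = 0.0216 and an adjusted p = 0.545 from limma. Probe set 1439663_at read 4.24, 4.11 and 4.18 in the *Ezh2* cko, against 4.55, 4.26 and 4.38 in controls (log2 difference -0.22, adjusted p = 0.647). Probe set 1450824_at, with -0.16 (adjusted p = 0.767), was the least separated, and in both of the dim probe sets control replicate 1 was the highest array.

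*Hhip* encodes a membrane protein that binds the ligand and limits its spread, and like *Ptch1* it is a target of the pathway. All 4 of its probe sets were dim and overlapped between the groups. The brightest, 1455277_at, read 4.13, 4.08 and 4.04 in the *Ezh2* cko, against 4.25, 4.22 and 4.08 in controls. Its log2 difference was -0.10 (95% interval -0.28 to 0.08), and the other 3 ranged between -0.06 and 0.09, so that *Hhip* gave no reading comparable to that of *Ptch1*.

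The gene starts of *Ptch1* and *Hhip*, the targets of the pathway among the members for which a window was found, are shown because the complex of Ezh2 acts mostly at CpG-rich starts. The sequences are from RefSeq (GRCm38.p6), cover 250 bases before to 50 after an annotated start, run 5′ to 3′ on the gene's strand and have each CpG dinucleotide in capitals. That of *Ptch1* lies at chr13:63565686-63565985 on the minus strand, and its start is 7725 bases inside the outer end of the gene, which has further starts. That of *Hhip* lies at chr8:80057959-80058258 on the minus strand.
Ptch1: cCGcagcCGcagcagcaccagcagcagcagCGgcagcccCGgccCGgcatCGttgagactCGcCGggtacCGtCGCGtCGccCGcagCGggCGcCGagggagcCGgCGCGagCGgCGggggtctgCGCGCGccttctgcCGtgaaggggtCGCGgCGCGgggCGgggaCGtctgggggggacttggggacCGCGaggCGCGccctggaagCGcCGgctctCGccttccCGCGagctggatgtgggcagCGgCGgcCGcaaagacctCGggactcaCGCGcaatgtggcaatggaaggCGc
Hhip: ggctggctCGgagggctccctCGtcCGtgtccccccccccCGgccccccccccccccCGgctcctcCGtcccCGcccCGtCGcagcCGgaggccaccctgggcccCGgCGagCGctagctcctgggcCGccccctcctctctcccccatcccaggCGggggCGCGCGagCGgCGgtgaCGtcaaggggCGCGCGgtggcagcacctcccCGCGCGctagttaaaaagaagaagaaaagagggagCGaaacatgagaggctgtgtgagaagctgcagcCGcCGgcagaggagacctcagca
The *Ptch1* window holds 47 CpG dinucleotides, a number that 1.44% of the 32851 windows in the table reach, and the *Hhip* window holds 30, which 11.7% reach, against a median of 7 over all windows. Windows were found for 6 of the 9 genes, and those of *Gli3*, *Gli2*, *Smo* and *Cdon* hold 39, 28, 17 and 3, where the *Cdon* start lies 30548 bases inside the gene. *Shh*, *Gli1* and *Boc* had none. The Gli binding motif GACCACCCA, searched on both strands (TGGGTGGTC on the other), occurs in none of these 6 windows and in 0.253% of all windows. That says only that these letters are not in these windows. Set in order of their number of CpG dinucleotides, the log2 differences were -0.26 for *Ptch1*, -0.16 for *Gli3*, -0.10 for *Hhip*, -0.04 for *Gli2*, -0.07 for *Smo* and 0.32 for *Cdon*. With 6 genes and 1 start each, this order is a description and was not tested, and no chromatin data on these samples were used here.

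*Cdon* and *Boc* encode cell surface proteins of the immunoglobulin superfamily that bind the ligand together with Patched1. Probe set 1434957_at of *Cdon* read 11.30, 11.03 and 11.08 in the *Ezh2* cko, against 10.81, 10.82 and 10.82 in controls. Every *Ezh2* cko array lay above every control, the controls were nearly identical, and *Ezh2* cko replicate 1 was the highest. The log2 difference was 0.32 (standard error 0.09, 95% interval 0.12 to 0.53, 1.25-fold), with an unadjusted p = 0.00651 and an adjusted p = 0.371 from limma, and it was 0.24 without *Ezh2* cko replicate 1. The other *Cdon* probe set, 1421452_at, read 6.17, 6.23 and 6.23 in the *Ezh2* cko, against 6.20, 6.14 and 6.21 in controls, with a difference of 0.03 (95% interval -0.13 to 0.19). The intervals of the 2 probe sets overlap, and 1 of them set the groups apart.

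For *Boc*, probe set 1427516_a_at read 9.62, 9.37 and 9.54 in the *Ezh2* cko, against 9.31, 9.22 and 9.36 in controls (log2 difference 0.21, 95% interval 0.01 to 0.42, adjusted p = 0.637). Probe set 1426869_at read 9.43, 9.23 and 9.54 in the *Ezh2* cko, against 9.06, 9.18 and 9.28 in controls (log2 difference 0.22, 95% interval -0.01 to 0.46, adjusted p = 0.692). The first separated the groups by 1 narrow gap, at *Ezh2* cko replicate 2, and the second did not separate them. The dim 1427517_at had -0.03.

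The remaining coreceptor gene *Gas1*, which encodes a lipid-anchored protein, lay on the same side. Its brightest probe set read 12.66, 12.86 and 12.84 in the *Ezh2* cko, against 12.50, 12.34 and 12.62 in controls (log2 difference 0.30, 95% interval 0.08 to 0.53, adjusted p = 0.48), and its others gave 0.38 (adjusted p = 0.201) and 0.02. *Gpc3*, which encodes a glypican that competes with Patched1 for the ligand, read 9.81, 9.80 and 9.65 in the *Ezh2* cko, against 9.59, 9.43 and 9.50 in controls (log2 difference 0.25, adjusted p = 0.511). *Lrp2*, for an endocytic receptor of Shh, had 0.10, with a wide spread in the *Ezh2* cko (7.56, 7.01 and 6.75, against 7.06, 6.88 and 7.09 in controls). None of the 3 genes in this list rose or fell, and all 3 differences were positive (median 0.25).

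These receptor genes are also known from head mesenchyme, whose markers lay on the same side. All 12 mesenchyme markers had positive differences, none rose or fell, and their median was 0.35. This side was not particular to mesenchyme. Positive too were 14 of 15 neuron markers (median 0.36) and 9 of 9 macrophage markers (median 0.23). Of the erythroid markers 3 of 7 were positive (median -0.02), and of all 18193 genes 7832. The mean log2 signal of the mesenchyme markers was 8.78, 8.77 and 8.93 on the *Ezh2* cko arrays, against 8.31, 8.66 and 8.62 on the control arrays. It was lowest in control replicate 1. The part of mesenchyme in the result was not tested, and in tissue samples more cells of a type and more RNA per cell cannot be told apart.

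**Figure D2:**
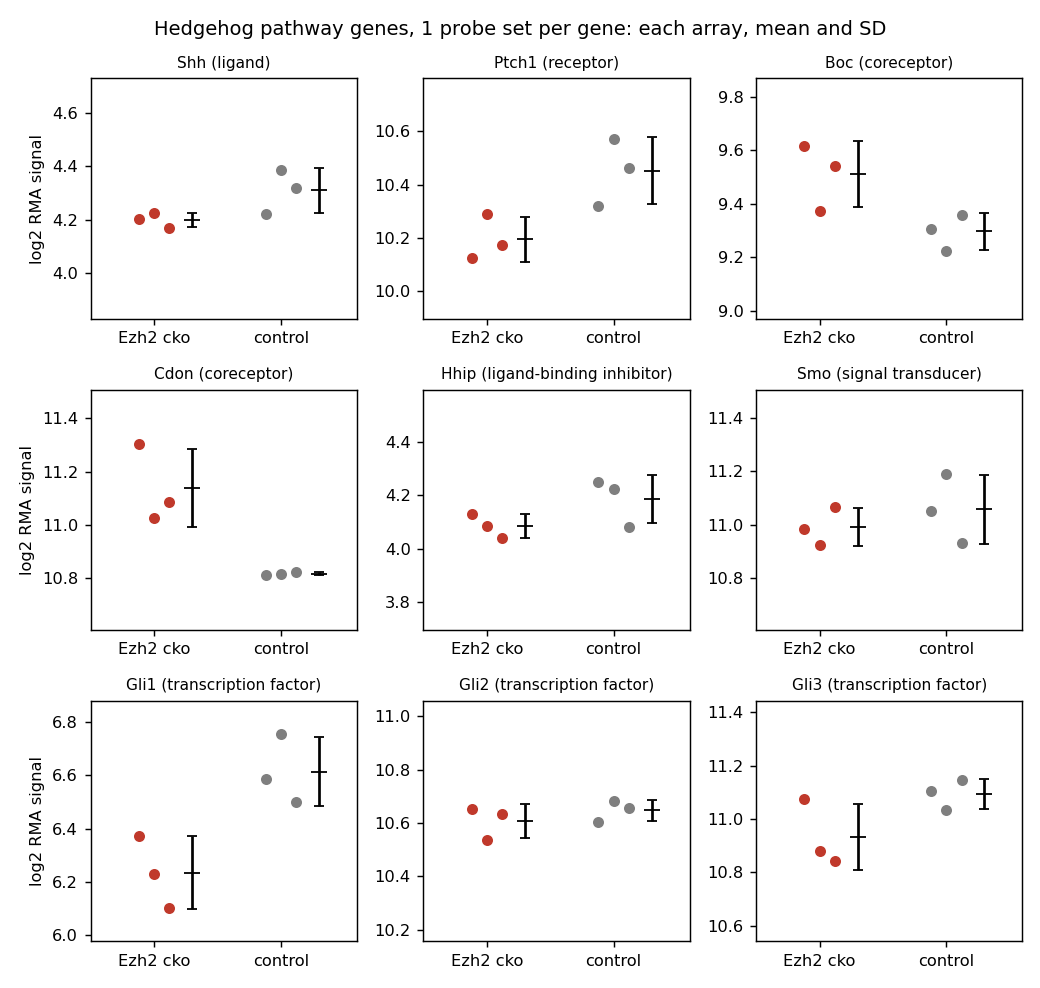
Log2 RMA signal (y axis, each panel spanning 0.9 log2 units) on each *Ezh2* cko array (red) and control array (grey), for the probe set with the highest mean of each of the 9 genes, with the group mean and SD in black (n = 3 each). The groups are apart in *Ptch1*, *Boc*, *Cdon* and *Gli1* and overlap in *Shh*, *Hhip*, *Smo*, *Gli2* and *Gli3*.

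*Smo*, for the transducer that Patched1 holds inactive, overlapped between the groups in all 3 probe sets. The brightest, 1427049_s_at, read 10.98, 10.92 and 11.07 in the *Ezh2* cko, against 11.05, 11.19 and 10.93 in controls, a log2 difference of -0.07 (95% interval -0.27 to 0.14). The second, 1427048_at, had -0.18 (-0.42 to 0.07), where control replicate 2 at 10.02 was the highest array, and the dim 1442215_at had -0.02. Behind Smoothened, 17 genes for regulators of Gli proteins were read, among them kinases, ubiquitin ligases and cilium proteins. None rose or fell, 11 were on the negative side, and the median was -0.02. The largest was that of *Evc*, for a cilium protein that acts with Smoothened, at -0.26 (adjusted p = 0.8). *Sufu*, for the protein that holds Gli factors in the cytoplasm, had -0.20 (adjusted p = 0.81), *Arrb2*, for an arrestin, -0.17 (adjusted p = 0.782), and *Stk36*, for the kinase Fused, -0.12 (adjusted p = 0.871). In all 4, as in the 2 bright probe sets of *Smo*, control replicate 2 was the highest array. Without it the differences were -0.05 for *Evc*, -0.03 for *Sufu*, -0.08 for *Arrb2* and -0.03 for *Stk36*. The 6 genes for transport along the cilium stayed closest to 0, with a median of 0.01. Their extremes were *Dync2h1*, for a dynein motor, at -0.14 (adjusted p = 0.863), and *Kif3a*, for a kinesin motor, at 0.04 (adjusted p = 0.946), while *Ift122* and *Ift172*, for parts of the transport particles, had 0.02 and -0.02.

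The 3 Gli genes did not share a pattern. *Gli1*, an activator that is itself a target of the pathway, read 6.37, 6.23 and 6.10 in the *Ezh2* cko, against 6.59, 6.76 and 6.50 in controls. All *Ezh2* cko arrays lay below all controls, and the nearest, *Ezh2* cko replicate 1 and control replicate 3, were close together. The group means were 6.24 ± 0.14 in the *Ezh2* cko and 6.61 ± 0.13 in controls (SD, n = 3 each), a log2 difference of -0.38 (standard error 0.10, 95% interval -0.61 to -0.15, 0.769-fold). The unadjusted p was 0.00517 and the adjusted p = 0.345 from limma, and with single arrays left out the difference ranged between -0.45 and -0.31. The array has 1 probe set for this gene, so no other reading of it can be set beside it.

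*Gli2*, the main activator in the neural tube, read 10.65, 10.54 and 10.63 in the *Ezh2* cko, against 10.60, 10.68 and 10.66 in controls (1459211_at). Its difference of -0.04 had a 95% interval of -0.21 to 0.13, and the other probe set gave -0.01. *Gli3*, the main repressor, read 11.07, 10.88 and 10.84 in the *Ezh2* cko, against 11.10, 11.04 and 11.15 in controls (1455154_at), a difference of -0.16 (95% interval -0.36 to 0.04, adjusted p = 0.743). Its 3 probe sets were not alike. The dim 1450525_at gave -0.15, whereas 1456067_at, with the widest spread of any member, gave 0.09 (10.35, 10.58 and 10.92 in the *Ezh2* cko, against 10.71, 10.22 and 10.66 in controls). RNA signals do not show how much Gli3 protein was full length and how much was processed.

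Of 17 targets and ventral or intermediate neural tube factors, *Foxa1* rose and none fell, against 0.302% of all genes that passed in either direction. *Foxa1*, for a forkhead factor of the floor plate, read 6.49, 6.49 and 6.58 in the *Ezh2* cko, against 5.44, 5.08 and 5.35 in controls, 2.35-fold higher (adjusted p = 0.00628 from limma). The study also lists this *Foxa1* probe set as differentially expressed, at the same ratio. With the methods' t-test and the adjustment used here, which the methods do not state, its adjusted p was 0.38. *Foxa2*, the related factor that Gli proteins induce directly in the floor plate, read 5.06, 5.07 and 5.04 in the *Ezh2* cko, against 5.36, 5.25 and 4.92 in controls (log2 difference -0.12, 95% interval -0.38 to 0.14). This *Foxa2* probe set was dim, so its interval bounds a difference only weakly.

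Most of the other ventral and intermediate factors had lower means in the *Ezh2* cko. Of the 17 genes, which also include general targets such as *Mycn* and *Ccnd2*, 12 had negative differences (median -0.05). Over all 18193 genes, 10361 differences were negative (median -0.02). *Nkx6-2*, a homeobox gene that hedgehog signalling induces in the ventral neural tube, had the largest of the 17, at -1.36 (standard error 0.44, 95% interval -2.36 to -0.37, adjusted p = 0.467). It read 5.35, 6.44 and 4.76 in the *Ezh2* cko, against 6.13, 7.40 and 7.11 in controls, so that control replicate 1 lay below *Ezh2* cko replicate 2 and the groups overlapped. The study lists this probe set as differentially expressed, at the same ratio of 0.39. Its unadjusted p from limma was 0.0129, just above the limit of the methods. *Dbx1*, for a homeobox factor of the intermediate neural tube, read 10.33, 10.65 and 10.98 in the *Ezh2* cko, against 11.05, 11.32 and 11.24 in controls, with no overlap (log2 difference -0.55, adjusted p = 0.393). *Nkx6-1* had -0.18 (adjusted p = 0.849) and *Nkx2-2*, a gene of the cells next to the floor plate, -0.14 (adjusted p = 0.779), both with overlap. The *Nkx2-2* probe set was dim. *Sim1*, a gene of ventral interneurons of the spinal cord, gave -0.08 in its brighter probe set, 1420736_at. The dimmer 1449967_at met the threshold of the methods, with 4.99, 5.63 and 5.56 in the *Ezh2* cko, against 4.20, 4.65 and 4.71 in controls (log2 difference 0.87, adjusted p = 0.205). It is the *Sim1* probe set that the study lists as differentially expressed. *Bcl2*, a survival gene that Gli proteins can induce, had 0.16 (adjusted p = 0.703). *Ccnd1*, for the cyclin that hedgehog signalling induces in proliferating progenitors, had 0.002 (95% interval -0.20 to 0.20).

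Genes of the dorsal neural tube, which hedgehog signalling restricts ventrally, lay on the other side. None of 11 rose or fell, 10 had positive differences (against 7832 of all 18193 genes), and the median was 0.28. *Wnt1*, a roof plate and isthmus signal, read 8.63, 8.27 and 8.31 in the *Ezh2* cko, against 7.65, 7.64 and 7.22 in controls, a log2 difference of 0.90 that met the threshold of the methods and had an adjusted p = 0.0712 (0.0393 with a trended and robust variance prior). It was 0.76 without control replicate 3 and 0.79 without *Ezh2* cko replicate 1, both under that threshold. The study also lists this *Wnt1* probe set as differentially expressed. All *Ezh2* cko embryos carried *Wnt1-Cre*, which controls may lack, and the part of the transgene in the *Wnt1* reading was not tested. *Olig3*, for a factor of dorsal progenitors, had 0.65 (adjusted p = 0.737) with overlap, and 0.34 without either *Ezh2* cko replicate 1 or control replicate 2. *Bmp6*, a roof plate signal, had 0.56 (adjusted p = 0.207), and the homeobox genes *Msx2* and *Msx1*, targets of BMP signalling, had 0.47 (adjusted p = 0.17) and 0.34 (adjusted p = 0.425). *Bmp6*, *Msx2* and *Msx1* separated the groups.

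**Figure D3:**
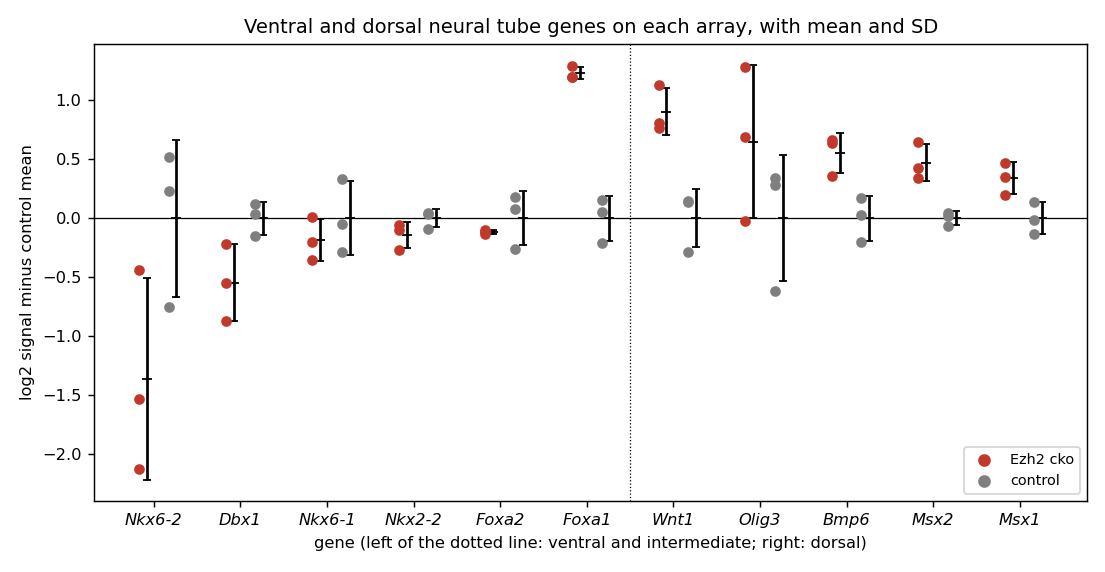
Deviation of each log2 signal from the mean of the controls (y axis) on each *Ezh2* cko array (red) and control array (grey), with group mean and SD in black, for ventral and intermediate (left of the dotted line) and dorsal (right) neural tube genes. *Foxa1* stands apart upward among the ventral genes, *Nkx6-2* has the widest spread in both groups, and the *Ezh2* cko points of *Wnt1*, *Bmp6*, *Msx2* and *Msx1* lie above all controls.

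Over these lists together, 62 genes were measured and *Foxa1* alone passed. At an unadjusted p under 0.05, 9 were higher (14.5%, against 6.12% of all genes) and 2 were lower (3.23%, against 2.75%). The lower ones were *Nkx6-2* and *Dbx1*. Of the 9 higher ones, 5 were in the dorsal list, 2 among the other receptors and coreceptors, and 1 each among the ligands and the targets. The regulators of Gli proteins and the cilium genes held none, which in such short lists is near the 6.12% of all genes. Because the lists were chosen with earlier results of these data known, the 14.5% is a description and not a test. The mean log2 signal of the dorsal list was 9.34, 8.97 and 9.07 on the *Ezh2* cko arrays, against 8.78, 8.68 and 8.83 on the control arrays, with no overlap. That of the list of targets and ventral or intermediate factors was 7.13, 7.25 and 7.16 on the *Ezh2* cko arrays, against 7.20, 7.30 and 7.26 on the control arrays, with overlap. These values stand beside those of *Gli1* and *Ptch1*. The part that the dorsal and ventral content of the dissected tissue has in them was not tested.

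**Figure D4:**
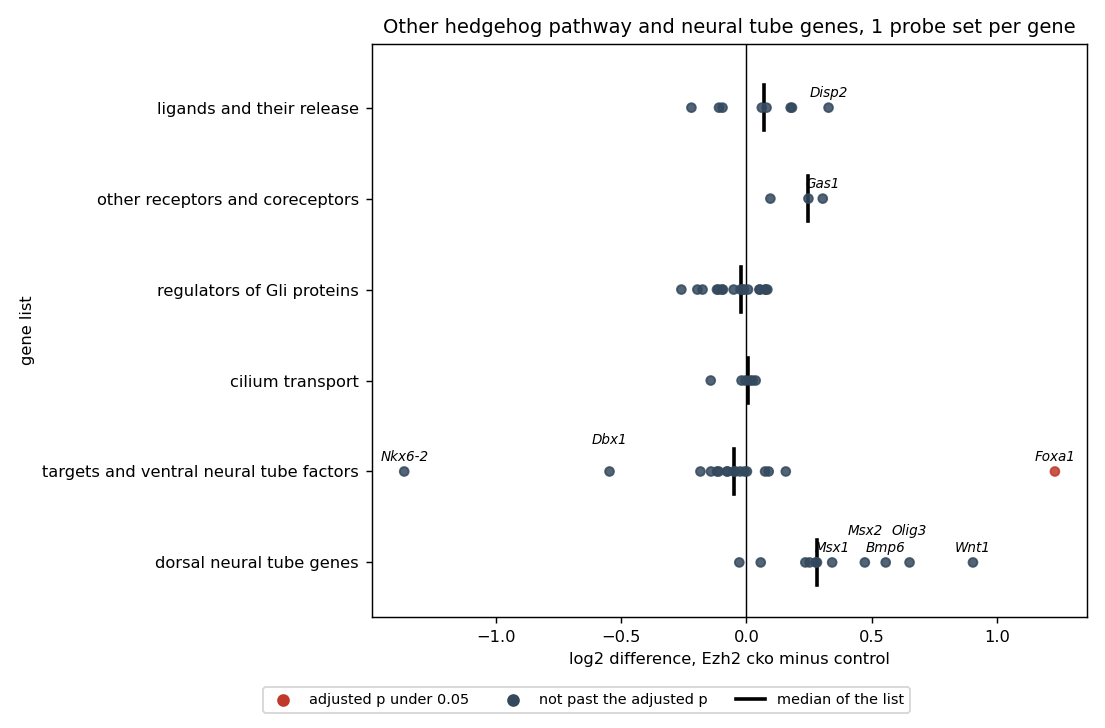
Log2 difference, *Ezh2* cko minus control (x axis), of 62 other hedgehog pathway and neural tube genes in 6 lists (y axis), 1 probe set per gene, with the median of each list as a black bar. *Foxa1* (red) is past the adjusted p of 0.05 and the genes in blue are not. The cilium genes lie closest to 0, with a median of 0.01, and the dorsal genes lie mostly to the right, with a median of 0.28.

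The genes with profiles nearest to *Gli1* and *Shh* over the 6 arrays, each centred on its own mean, were sought among genes that vary at least as much. For *Gli1* (1296 candidates) these were *Adat2*, *Tmem38b* and *2010204K13Rik*, with root mean square differences of 0.048, 0.073 and 0.084 log2 units. For *Shh* (13780 candidates) they were *Sdhaf4*, *Mrps18c* and *Phykpl*, at 0.014, 0.020 and 0.025. None of these 6 passed the adjusted p and none belongs to the pathway lists.

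The labelled tissue was checked on a list of 9 dorsal midbrain markers, which all reached the median of all values on every array. Some of them, such as the progenitor marker *Sox2* and *Otx2*, are not particular to the dorsal midbrain, so their signals alone do not identify it. None passed the test and 8 differences were positive. *Otx2*, for the homeobox factor of forebrain and midbrain, read 11.33, 11.43 and 11.27 in the *Ezh2* cko, against 11.16, 11.19 and 11.40 in controls. Of 15 floor plate and ventral midbrain markers, *Foxa1* rose, none fell, and 10 were negative. At the threshold of the methods, *Foxa1* was higher, as was the second probe set of *Sim1*, and *Ntn1*, for the floor plate guidance protein netrin, was lower (log2 difference -0.84, adjusted p = 0.355). The study lists each of these probe sets too. Neuron markers were positive in 14 of 15 (mean log2 signal 9.95, 10.20 and 10.43 in the *Ezh2* cko, against 9.60, 9.95 and 10.01 in controls, with median difference 0.36), and none passed. Macrophage markers were positive in 9 of 9, erythroid markers in 3 of 7, endothelial markers in 6 of 8, neural crest markers in 4 of 5 and notochord markers in 2 of 2, none past the test. Of 9 surface ectoderm and epithelium markers, *Epcam* and *Cdh1* rose (against 0.302% of all genes that passed in either direction), 4 differences were negative and the median was 0.09.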

How the data were processed

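Total RNA of dorsal midbrain was hybridized to 1 array per sample. The submitters deposited log2 signals made with RMA (version not given in the sources used here). RMA removes background, equalises the distributions of the arrays and joins the probes of each set, so a probe set is compared only with itself, and the number of arrays limits the precision. After 64 control sets were left out, 45037 probe sets were fitted with limma 3.58.1 (R 4.3.3, lmFit and eBayes, *Ezh2* cko minus control, no other term) and p-values were adjusted over all of them (Benjamini-Hochberg, threshold 0.05). Intervals are 95% from the moderated fit. The methods' t-test was run as an alternative. The annotation gives 1 symbol to 34945 probe sets, several to 932 and none to 9160, and symbols were updated through Entrez identifiers where possible (34741). The probe set with the highest mean represents a gene.

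Members and lists were chosen with earlier results of these data known. Named are all members, list genes past a threshold, up to 4 further genes per list with the largest differences, and the 3 nearest profiles to *Gli1* and *Shh*. *Foxa2*, *Nkx2-2*, *Ccnd1*, *Sim1* and the marker genes were named after their values were seen. Some listed genes, such as *Grk2* and *Arl13b*, are not analysed here. The alternatives are given in the closing section, and the procedure was tested on simulated data.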

Additional observations from a re-analysis of the deposited data

How the results depend on the processing

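None of the 23 probe sets of the hedgehog genes passed the adjusted p, or the threshold of the methods, under any of the alternatives run: the methods' t-test, a trended and robust prior, weighted arrays, dim probe sets left out, arrays centred on their medians, cyclic loess, no probe sets ending in _x_at or _s_at, a replicate block and leaving out each array in turn. The median over the 9 genes ranged between -0.13 and -0.07 without single arrays. *Gli1*, *Cdon* (1434957_at), the 3 probe sets of *Ptch1* and the 2 bright ones of *Boc* kept their direction throughout. The filter on dim probe sets leaves no value for *Shh* and *Hhip*.

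Over all probe sets, 85 passed with all arrays, 21 to 46 without single arrays, 59 with the replicate block and 0 with the methods' t-test. The adjusted p from the t-test thus tells nothing about the hedgehog genes in particular. Of the 62 other genes, 1 passed with all arrays and whichever array was left out, 0 with the t-test and 2 with the trended and robust prior. The count of hedgehog probe sets with no overlap (leaving arrays out of it was added once the data had been seen) was 6 with all arrays and ranged between 7 and 10 without single arrays. The same count over all probe sets was not made for fewer arrays, so this range has no background beside it. The labels do not say whether the replicate numbers pair the samples. Same-numbered samples had correlations of their deviations of 0.065, -0.20 and 0.063, and differently numbered ones ranged between -0.16 and 0.12. These values show no pairing by number, but with so few arrays they cannot exclude one. With the replicate block *Gli1* had an adjusted p = 0.32 and *Cdon* of 0.435.

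Signs turned in differences near 0. Array weights gave 0.026 for *Smo* 1442215_at, and cyclic loess gave 0.0094 for it, 0.0022 for *Boc* 1427517_at and 0.0071 for *Hhip* 1437933_at. With the probe set of largest SD, *Arrb2* had 0.0077 and *Bcl2* -0.078. Without single arrays, differences ranged between -0.094 and 0.095 for *Smo* 1442215_at, -0.13 and 0.00017 for *Smo* 1427049_s_at, -0.065 and 0.022 for *Boc* 1427517_at, -0.064 and 0.019 for *Hhip* 1437933_at, -0.12 and 0.012 for *Hhip* 1438083_at, -0.063 and 0.069 for *Gli2* 1446086_s_at, -0.064 and 0.22 for *Gli3* 1456067_at, -0.0097 and 0.070 for *Ift122*, -0.12 and 0.048 for *Ift172* and -0.13 and 0.27 for *Lrp2*.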
